A study of Mus musculus with 2 samples.

Results

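Plasmacytoid dendritic cells were examined among CD45+ leukocytes sorted from subcutaneous B16F10-OVA tumours of mice and profiled by droplet single-cell RNA sequencing. B16F10-OVA is a mouse melanoma line that makes ovalbumin as a model antigen. Mice carrying tumours from 1000000 injected cells received UDSP-Hep, or PBS as the control, on days 10, 12, 14 and 16. What UDSP-Hep is made of, the route of these injections and the age and strain of the mice are not given in the sources used here. On day 19, 3 tumours per group were pooled and about 10000 cells per group were loaded, which gave 1 library for UDSP-Hep and 1 library for PBS. Cells could not be traced to single tumours, so there was no replicate check and no test between the groups. The intervals printed cover counting error only and say nothing of differences between animals.

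The cells were chosen by their measured values. A barcode was a member when it had at least 200 genes, at least 500 UMIs (unique molecular identifiers, each counting 1 captured RNA molecule) and under 10% mitochondrial UMIs, at least 1 Siglech UMI, UMIs of at least 2 of the 4 genes Ccr9, Cox6a2, Tcf4 and Klk1, and no UMI of Cd3e, C1qa or Cd79a. This gave 34 members in the UDSP-Hep library and 84 in the PBS library, 118 of 14809 kept cells in all. Levels are given as CPM, UMIs of a gene summed over the members of a library and scaled to 1000000 of all their UMIs.

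Plasmacytoid dendritic cells are round, antibody-secreting-cell-like members of the dendritic lineage that sense nucleic acids in endosomes through TLR7 and TLR9 and can release large amounts of type I interferon. Their fate depends on the E protein Tcf4 (also called E2-2), which binds E-box motifs and keeps the programme of conventional dendritic cells low. In tumours they are often described as poor interferon producers with a tolerance-promoting character.

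The windows of 250 bases before the start site of 3 rule genes and of Klk1b27, a kallikrein that had a lower level in the UDSP-Hep library, are shown because E-boxes are the motif bound by E proteins. They come from RefSeq on GRCm38.p6 and are written 5′ to 3′ on the gene's strand, which is the plus strand for all 4. The capitals mark each CANNTG. The Siglech window lies at chr7:55767934-55768183, Ccr9 at chr9:123766961-123767210, Klk1 at chr7:44225110-44225359 and Klk1b27 at chr7:44052040-44052289. The Ccr9 window lies inside the longer GENCODE span of that gene.
Siglech: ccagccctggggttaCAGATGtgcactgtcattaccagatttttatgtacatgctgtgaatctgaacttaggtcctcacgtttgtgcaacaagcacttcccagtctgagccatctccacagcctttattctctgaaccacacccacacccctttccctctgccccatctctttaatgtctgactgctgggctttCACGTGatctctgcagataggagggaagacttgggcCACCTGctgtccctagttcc
Ccr9: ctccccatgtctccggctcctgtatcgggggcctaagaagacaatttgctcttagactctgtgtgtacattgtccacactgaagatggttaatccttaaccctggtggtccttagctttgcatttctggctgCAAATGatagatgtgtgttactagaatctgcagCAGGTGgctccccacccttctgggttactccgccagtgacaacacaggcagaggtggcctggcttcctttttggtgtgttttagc
Klk1: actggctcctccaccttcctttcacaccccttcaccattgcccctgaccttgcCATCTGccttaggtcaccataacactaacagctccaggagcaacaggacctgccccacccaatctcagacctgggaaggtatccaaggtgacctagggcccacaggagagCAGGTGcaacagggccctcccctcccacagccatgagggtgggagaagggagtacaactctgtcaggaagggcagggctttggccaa
Klk1b27: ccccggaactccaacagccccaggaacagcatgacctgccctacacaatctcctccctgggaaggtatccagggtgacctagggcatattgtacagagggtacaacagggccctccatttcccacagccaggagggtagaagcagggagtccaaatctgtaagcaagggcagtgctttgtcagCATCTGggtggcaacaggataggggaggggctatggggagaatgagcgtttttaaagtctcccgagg

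The Siglech window held 3 CANNTG motifs, the Ccr9 and Klk1 windows 2 each and the Klk1b27 window 1. CANNTG reads the same on both strands, so 1 search covers both. The variant CACCTG, which reads CAGGTG on the other strand, stood once in each of the Siglech, Ccr9 and Klk1 windows and was not found in the Klk1b27 window. The window of Slpi, another gene with a lower level in the UDSP-Hep library, is not shown. It held 3 CANNTG motifs, 1 of them CAGGTG. Over all 32851 RefSeq promoter windows of this length, 66.22% held a CANNTG and 17.22% a CACCTG or CAGGTG. Of the 24 windows matched to 16 of the 25 leading genes described below, 17 (70.83%) held a CANNTG and 7 (29.17%) a CACCTG or CAGGTG. These matches are a description of letters and not of binding.

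The UDSP-Hep library held 7675 kept cells and the PBS library 7134, with median depths of 5793 UMIs (UDSP-Hep) and 8115.5 UMIs (PBS). The members were of similar depth in both libraries, with a median of 10532.5 UMIs in the UDSP-Hep library (range 2471 to 32222) and 10151.5 in the PBS library (range 4068 to 32185). In all, 392368 member UMIs stood behind the UDSP-Hep values and 892486 behind the PBS values. Median mitochondrial shares of the members were 3.56% in the UDSP-Hep library and 4.22% in the PBS library. The libraries shared 25 barcodes, none of them a member. Ptprc, which encodes CD45, was found in 33 of the 34 UDSP-Hep members and in 84 of the 84 PBS members.

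Plasmacytoid dendritic cells made up a smaller share of leukocytes in the UDSP-Hep library. They were 0.443% of kept cells there (34 of 7675, exact binomial 95% interval 0.307 to 0.618) and 1.18% in the PBS library (84 of 7134, interval 0.940 to 1.46), a ratio of 0.376 (Katz log interval 0.253 to 0.560). The other dendritic classes, chosen by rules of the same kind, also had smaller shares in the UDSP-Hep library. The ratio was 0.153 for cDC1, the cross-presenting conventional subset, 0.612 for cDC2 and 0.284 for mature Ccr7-type dendritic cells. Among dendritic cells alone, plasmacytoid cells were 11.0% of 310 in the UDSP-Hep library (interval 7.72 to 14.99) and 13.3% of 631 in the PBS library (interval 10.8 to 16.2). The ratio within dendritic cells was 0.824, and its interval of 0.567 to 1.20 included equality. Macrophages also had a smaller share, with a ratio of 0.606 (interval 0.551 to 0.667). T cells had a ratio of 1.02 and B cells of 1.17. These are shares of CD45-sorted cells, and neither the number of cells per tumour nor the tumour mass is known here.

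**Figure D1:**
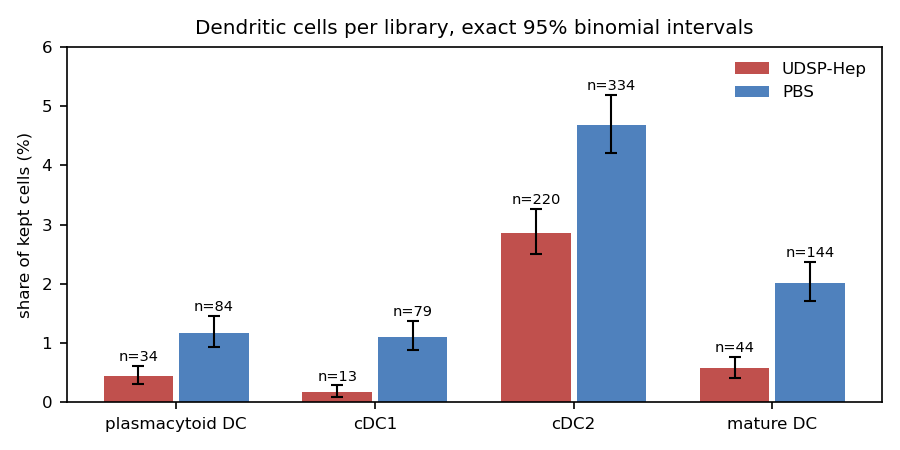
Share of kept cells (%) that met the rule for each dendritic class, UDSP-Hep left of PBS in each pair. Bars are shares in 1 library, error bars exact 95% binomial intervals and n the number of cells; plasmacytoid cells were 0.443% in the UDSP-Hep and 1.18% in the PBS library.

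Siglech levels on either side of the rule's limits are a description, since the rule used them. Members had a median of 24.5 Siglech UMIs in the UDSP-Hep library and 26 in the PBS library, and the lowest members of both libraries had 2. Barcodes just outside it, with Siglech and 1 of the 4 other genes, numbered 10 in the UDSP-Hep library and 9 in the PBS library, with a median of 1 and at most 2 Siglech UMIs in each. Barcodes with at least 2 of the 4 genes and no Siglech UMI numbered 31 in the UDSP-Hep library and 42 in the PBS library. Members just inside, with 2 of the 4 genes, numbered 1 with 5 Siglech UMIs in the UDSP-Hep library and 7 with a median of 7 in the PBS library. The genes that had to be absent took out 6 UDSP-Hep barcodes and 16 PBS barcodes, with medians of 12 Siglech UMIs (UDSP-Hep) and 20 (PBS). Most of the members, 18 of 34 in the UDSP-Hep library and 64 of 84 in the PBS library, had all 4 genes.

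The label held when genes outside the rule were used. On 30 principal components of 2000 variable genes without the rule genes, the 15 nearest cells of a member were members themselves in a median of 14 cases in each library. At least 8 of 15 neighbours were members for 31 of 34 UDSP-Hep and 79 of 84 PBS cells. Only 4 of 7641 UDSP-Hep non-members and 10 of 7050 PBS non-members had such a neighbourhood. Each of these had Siglech, Ccr9 and Tcf4 UMIs and either Cd3e or C1qa.

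Some members held many UMIs of a phagocyte gene. Lyz2, the lysozyme gene of macrophages, monocytes and neutrophils, had at most 2 UMIs in most members, but 11 to 251 UMIs in 3 UDSP-Hep cells and 8 to 61 UMIs in 4 PBS cells. These 7 cells were deep, with a median of 27268 UMIs in the UDSP-Hep library and 19070.5 in the PBS library, and 4 of them had 8 or more member neighbours. Counts and medians without them (31 UDSP-Hep and 80 PBS cells) are given beside the results they change most. The limit of 5 Lyz2 UMIs was set after the gap between 2 and 8 was seen.

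Siglech, which encodes a sialic acid-binding receptor of plasmacytoid cells that signals through DAP12, was at 2192 CPM in the UDSP-Hep library and 2365 CPM in the PBS library. In single cells it spanned 1.47 to 66.7 UMIs per 10000 in UDSP-Hep members (median 21.9) and 1.86 to 79.3 in PBS members (median 24.6). The cells of both libraries covered the same range. Tcf4 was at 2498 CPM in UDSP-Hep members and 2554 CPM in PBS members, a ratio of 0.98. These genes chose the members, so their levels are a description.

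Ccr9, the receptor for the gut and thymus chemokine CCL25, was at 1672 CPM in UDSP-Hep members and 2189 CPM in PBS members. Its median was 12.9 UMIs per 10000 in UDSP-Hep cells and 20.9 in PBS cells. Cox6a2, the muscle-type isoform of a cytochrome c oxidase subunit, was at 900 CPM in UDSP-Hep members and 1542 CPM in PBS members. Klk1, tissue kallikrein, was at 484 CPM in UDSP-Hep members and 971 CPM in PBS members. Klk1 had the lowest ratio of the rule genes, 0.50, and the cells of the libraries overlapped throughout for all of them. After every cell was thinned to 2000 UMIs, Klk1 was seen in 13 of 34 UDSP-Hep members (38.2%, exact interval 22.2 to 56.4) and 53 of 84 PBS members (63.1%, interval 51.9 to 73.4). Before thinning these shares were 64.7% in the UDSP-Hep library and 76.2% in the PBS library. T cells, which should lack the gene, had thinned shares of 0.0753% in the UDSP-Hep library and 0.164% in the PBS library, at median depths before thinning of 5839.5 UMIs (UDSP-Hep) and 7529 UMIs (PBS).

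**Figure D2:**
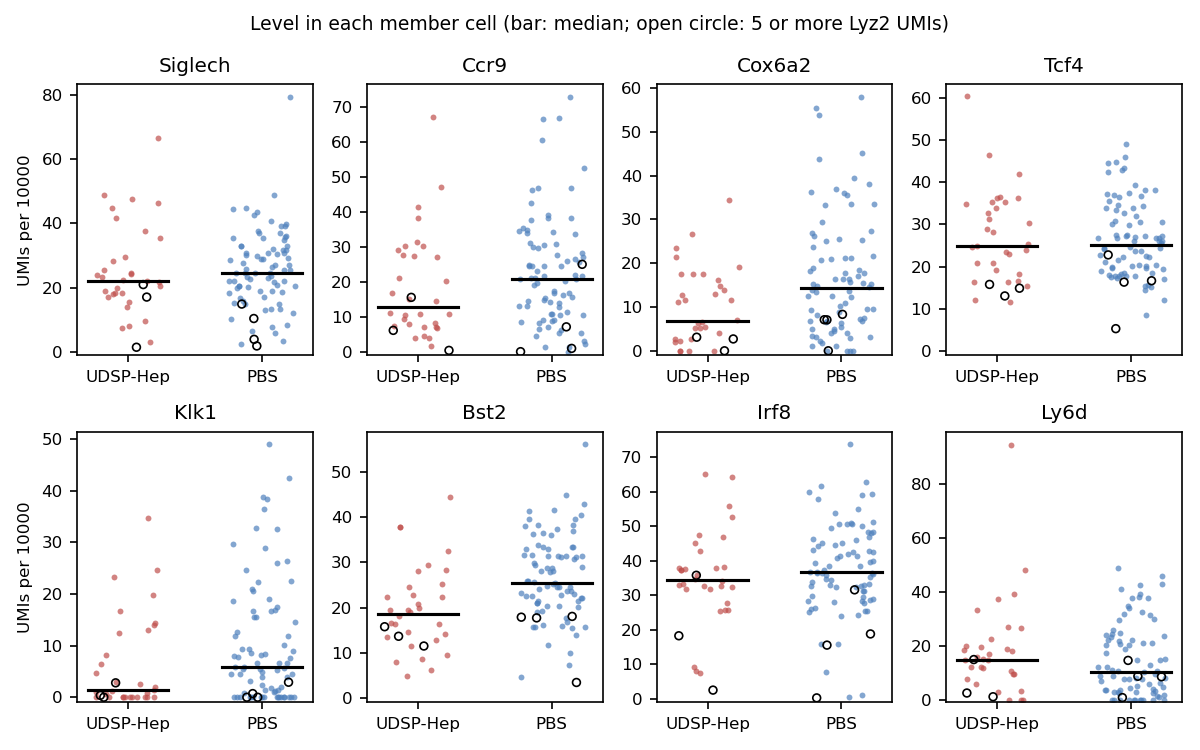
UMIs per 10000 of 8 genes in each member cell (linear axes), UDSP-Hep left of PBS, with a bar at the median and open circles for the 7 cells with 5 or more Lyz2 UMIs. The cells of both libraries overlap in every panel; the Ccr9 median is 12.9 in UDSP-Hep and 20.9 in PBS cells, and the Bst2 median 18.6 in UDSP-Hep and 25.5 in PBS cells.

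The leading genes were shared by both libraries. The 25 genes with the highest smaller-of-2-libraries excess over all other kept cells, at 100 CPM or more in both, included the rule genes and Ly6d, Bcl11a, Spib, Cd300c, Pacsin1, Lifr, Rnase6 and Cdh5. Ly6d, a surface protein of lymphoid progenitors and B cells, was at 1685 CPM in UDSP-Hep members and 1542 CPM in PBS members, against 6.84 CPM in other UDSP-Hep cells and 6.74 CPM in other PBS cells. Cd300c, an immunoglobulin-like receptor gene, was at 209 CPM in UDSP-Hep members and 241 CPM in PBS members, against 0.725 CPM in other UDSP-Hep cells and 1.46 CPM in other PBS cells. Choosing cells by the rule fixes that such genes lead, so no test is attached.

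Several leading genes were also present in B cells. In B cells Ly6d was at 1002 CPM in the UDSP-Hep library and 612 CPM in the PBS library. Fcrla, an Fc receptor-like protein gene, was at 313 CPM in UDSP-Hep members and 371 CPM in PBS members, beside 319 CPM in UDSP-Hep and 232 CPM in PBS B cells. Spib, an Ets-family factor of plasmacytoid and B cells, was at 413 CPM in UDSP-Hep members and 363 CPM in PBS members, beside 249 CPM in UDSP-Hep and 116 CPM in PBS B cells. Mzb1, an endoplasmic reticulum protein of antibody-producing cells, was at 206 CPM in UDSP-Hep members and 207 CPM in PBS members, beside 234 CPM in UDSP-Hep and 889 CPM in PBS B cells. Ighm, the heavy chain gene of immunoglobulin M, had 456 UMIs in UDSP-Hep members and 979 UMIs in PBS members. Dntt, the terminal deoxynucleotidyl transferase of lymphoid progenitors, was at 110 CPM in UDSP-Hep members and 106 CPM in PBS members. Ms4a1, a defining B cell marker, had no UMI in the members of either library.

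**Figure D3:**
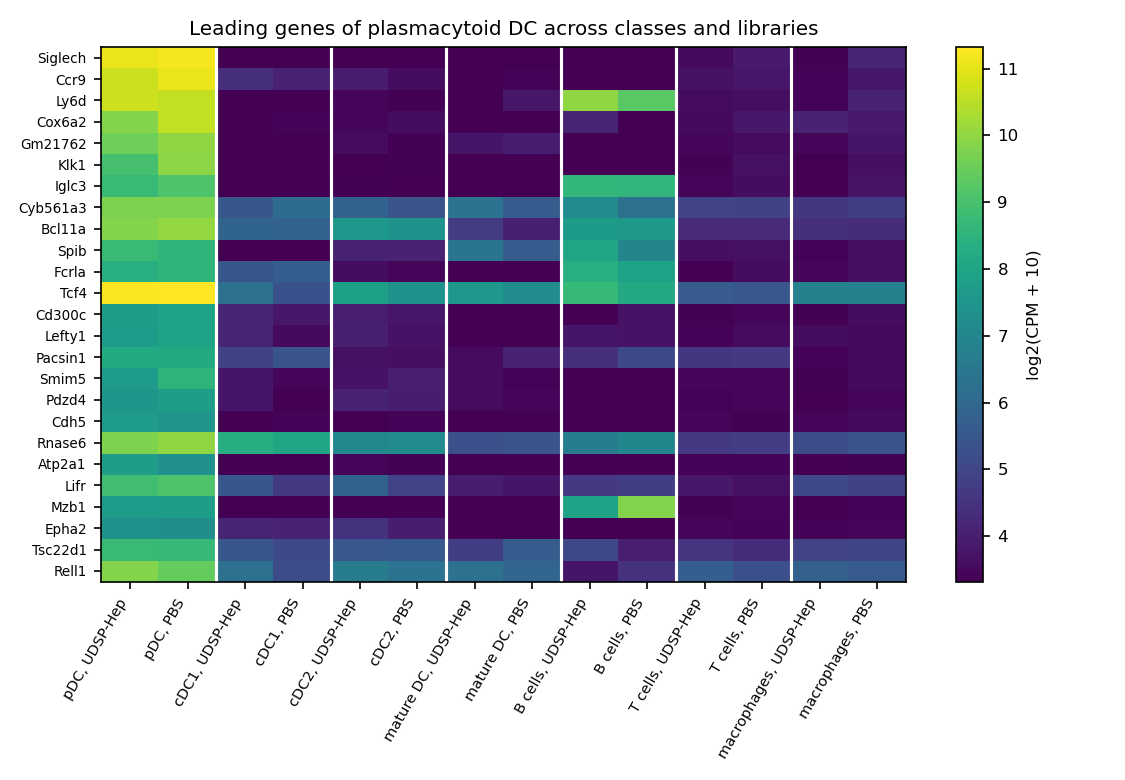
Levels of the 25 leading genes as log2(CPM + 10) in 7 classes, with UDSP-Hep left of PBS within each class. Siglech, Ccr9, Klk1 and Gm21762 are bright in plasmacytoid cells of both libraries, while Ly6d, Iglc3, Spib, Fcrla and Mzb1 are also bright in B cells.

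Between the libraries, most genes of plasmacytoid cells were at similar levels. Of 4075 genes with at least 50 UMIs over both libraries, rule genes left out, 100 (2.45%) were at a ratio of 2 or more, UDSP-Hep over PBS, and 69 (1.69%) at 0.5 or less. The median log2 ratio of all of them was 0.02. Without the 7 cells rich in Lyz2, 3661 genes were measured, of which 73 (1.99%) were higher and 65 (1.78%) lower by that fold. Of the 100 higher genes, 72 were still past the fold without those cells, and for 40 of the 100 a single UDSP-Hep cell held over 30% of the UMIs. Of the 69 lower genes, 55 were still past it, and 8 rested on such a PBS cell.

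The identity programme outside the rule was close to equal. Of 30 genes of this list, all measured, 1 was past 2-fold higher and none lower, against 2.45% and 1.69% of all genes. The median log2 ratio was -0.09 (-0.03 without the Lyz2-rich cells). Irf8, a transcription factor needed by dendritic cells, was at 3252 CPM in UDSP-Hep members and 3507 CPM in PBS members. Bst2, the tetherin that the antibody PDCA-1 detects, was at 1904 CPM in UDSP-Hep members and 2522 CPM in PBS members (log2 ratio -0.41). Its range was 4.76 to 44.5 UMIs per 10000 in UDSP-Hep cells (median 18.6) and 3.42 to 56.3 in PBS cells (median 25.5), so the cells overlapped. Smim5, a small membrane protein gene, had the lowest ratio of the list, at 199 CPM in UDSP-Hep members and 359 CPM in PBS members. Cd209d, a C-type lectin gene, was the 1 past the fold, at 135 CPM in UDSP-Hep members and 57.1 CPM in PBS members. A single UDSP-Hep cell held 34.0% of its UMIs, and its log2 ratio was 1.24 with and 0.95 without the Lyz2-rich cells.

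The transcription factors that build or oppose the lineage were likewise near equality. Of 12 measured, 1 was past the fold higher and none lower, against 2.45% and 1.69% of all genes. The median log2 ratio was 0.10. Runx2, which promotes exit from the bone marrow, was at 854 CPM in UDSP-Hep members and 869.5 CPM in PBS members. Bcl11a, an activator of Tcf4, was at 897 CPM in UDSP-Hep members and 1023 CPM in PBS members. Zeb2, which represses Id2, was at 339 CPM in UDSP-Hep members and 327 CPM in PBS members. Id2, the inhibitor of E proteins that favours conventional dendritic cells, was at 94.3 CPM in UDSP-Hep members and 32.5 CPM in PBS members (log2 ratio 1.54). Its log2 ratio was 2.24 without the Lyz2-rich cells, on under 50 UMIs. Over all members, a single UDSP-Hep cell held 56.8% of the 37 Id2 UMIs of that library. This cell was not Lyz2-rich, so it held a larger part of the 26 UMIs left without those cells. After thinning, Id2 was seen in 1 of 34 UDSP-Hep members and 5 of 84 PBS members.

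Genes of nucleic acid sensing through TLR7 and TLR9 gave no member past the fold among 16 measured, with a median log2 ratio of 0.10. With 2.45% of all genes past it higher and 1.69% lower, none among 16 is near that share. Tlr7, the receptor for single-stranded RNA, was at 176 CPM in UDSP-Hep members and 133 CPM in PBS members. Unc93b1, the chaperone that carries these receptors to endosomes, was at 780 CPM in UDSP-Hep members and 737 CPM in PBS members. Slc15a4, an endolysosomal transporter needed for this signalling, was at 278 CPM in UDSP-Hep members and 165 CPM in PBS members (ratio interval 1.30 to 2.18). Irf7, the factor that drives interferon-alpha genes, was at 227 CPM in UDSP-Hep members and 217 CPM in PBS members. Tlr9, the receptor for unmethylated CpG DNA, had 5 UMIs in UDSP-Hep members and 1 UMI in PBS members, too few for a ratio.

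Transcripts of the interferons themselves were almost absent at this depth. Of 20 type I and type III interferon genes, 19 had no UMI in UDSP-Hep members and all 20 had none in PBS members. The exception was Ifnb1, with 2 UMIs in 1 UDSP-Hep cell. A count of 0 allows up to 3 UMIs, that is 7.65 CPM in UDSP-Hep members and 3.36 CPM in PBS members. Interferon-stimulated genes were mixed, with 4 of 16 measured past the fold higher, against 2.45% of all genes, none lower, and a median log2 ratio of 0.41. Without the Lyz2-rich cells 2 of 13 were past it higher, against 1.99% of all genes, and the median was 0.14. Usp18, which restrains interferon receptor signalling, was at 143 CPM in UDSP-Hep members and 60.5 CPM in PBS members (log2 ratio 1.24, and 1.13 without those cells). Ifit1, Rsad2 and Ifitm3 made up the rest, and in each case a single UDSP-Hep cell held over 30% of the UMIs, with 91.4% for Ifit1, 50.7% for Rsad2 and 36.1% for Ifitm3. Without the Lyz2-rich cells Ifitm3 had a log2 ratio of 2.17, on 62 UMIs in UDSP-Hep members and 35 in PBS members. The cell behind the 36.1% was among those left out, but most of the 62 UMIs again lay in 1 cell. That UDSP-Hep cell had 15560 UMIs in all and 27.6 Ifitm3 UMIs per 10000, the highest level of any UDSP-Hep member. Without the Lyz2-rich cells Rsad2 (3.06) and Ifit1 (5 UMIs in UDSP-Hep members and 0 in PBS members) were under 50 UMIs.

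Antigen presentation genes showed no member past the fold, near the share over all genes (2.45% higher, 1.69% lower). The median log2 ratio was 0.31 for 10 class II genes and 0.14 for 13 class I genes. H2-Ab1, a class II chain, was at 1802 CPM in UDSP-Hep members and 1032 CPM in PBS members (log2 ratio 0.80, and 0.51 without the Lyz2-rich cells). Cd74, the invariant chain, was at 6224 CPM in UDSP-Hep members and 4821 CPM in PBS members. Cell by cell the class II sum did not separate the libraries, with medians of 74.8 UMIs per 10000 in UDSP-Hep members and 84.0 in PBS members. H2-K1, a class I heavy chain, was at 3351 CPM in UDSP-Hep members and 3041 CPM in PBS members.

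Few genes of maturation or costimulation reached 50 UMIs, 3 of 15, of which 2 were past the fold higher, against 2.45% of all genes. Tnf was at 96.8 CPM in UDSP-Hep members and 14.6 CPM in PBS members, and Cd83, a surface marker of mature dendritic cells, at 68.8 CPM in UDSP-Hep and 31.4 CPM in PBS members. In each case a single cell held much of the UDSP-Hep UMIs, 47.4% for Tnf and 48.1% for Cd83. Without the Lyz2-rich cells 1 of 2 measured was past the fold, Tnf with a log2 ratio of 3.01, and Cd83 (4.35) was under 50 UMIs. Cd80 had 3 UMIs in UDSP-Hep members and 2 in PBS members, and Ccr7 had 1 in UDSP-Hep members and 8 in PBS members. Of tolerance-associated genes 4 were measured, and Cd274 and Lilrb4a were past the fold higher, against 2.45% of all genes. Cd274 (PD-L1) was at 76.5 CPM in UDSP-Hep members and 34.7 CPM in PBS members, with 53.3% of the UDSP-Hep UMIs in 1 cell. For Lilrb4a 1 cell held 39.3% of the UDSP-Hep UMIs. The next values are for both genes, Cd274 first. The log2 ratio of Cd274 was 0.41 without and 1.14 with the Lyz2-rich cells, and that of Lilrb4a 0.71 without and 1.04 with them. None of the 2 tolerance-associated genes still measured was past the fold. Ido1 had no UMI in UDSP-Hep members and 1 in PBS members, and Gzmb had 2 in UDSP-Hep members and 5 in PBS members. Lag3, which plasmacytoid cells carry, was at 331 CPM in UDSP-Hep members and 306 CPM in PBS members.

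Immediate early genes, known to be switched on within minutes of a stimulus, formed the list furthest above equality among those with at least 5 genes measured. Of 16 measured, 8 were past the fold higher, against 2.45% of all genes, and none lower, with a median log2 ratio of 0.95, beside 0.02 over all genes. Without the Lyz2-rich cells 8 of 14 were past it, against 1.99% of all genes, and the median was 1.18. Single cells held 49.5% of the UDSP-Hep UMIs of Dusp1, 40.6% of Atf3, 40.2% of Egr1 and 33.3% of Nr4a3, all past the fold. For Nr4a1 and Junb, also past the fold, the top UDSP-Hep cell held 23.8% and 17.3%. Summed over the list, UDSP-Hep members held 18.7 to 240 UMIs per 10000 (median 39.4) and PBS members 3.20 to 138 (median 25.9). The cells of the libraries overlapped over most of that range.

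Nr4a1, an orphan nuclear receptor, was at 385 CPM in UDSP-Hep members and 122 CPM in PBS members, a ratio of 3.15 (exact interval 2.45 to 4.07). It was seen in 25 of 34 UDSP-Hep cells and 30 of 84 PBS cells. Junb, a subunit of the AP-1 factor, was at 1132 CPM in UDSP-Hep members and 471 CPM in PBS members, a ratio of 2.40 (interval 2.10 to 2.75). In single cells Junb reached up to 35.1 UMIs per 10000 in UDSP-Hep members (median 5.42) and 32.6 in PBS members (median 2.50). Klf6, a zinc finger factor, was at 306 CPM in UDSP-Hep members and 139 CPM in PBS members. Ier3 was the only member with a ratio under 1, at 76.5 CPM in UDSP-Hep members and 91.9 CPM in PBS members, and 56.1% of its PBS UMIs lay in 1 cell. The same list had a median log2 ratio of 0.41 in cDC1, 0.36 in cDC2, 0.72 in mature dendritic cells, 0.82 in T cells, 0.56 in macrophages and 0.43 in B cells. These classes share the libraries, so their values are given side by side only.

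**Figure D4:**
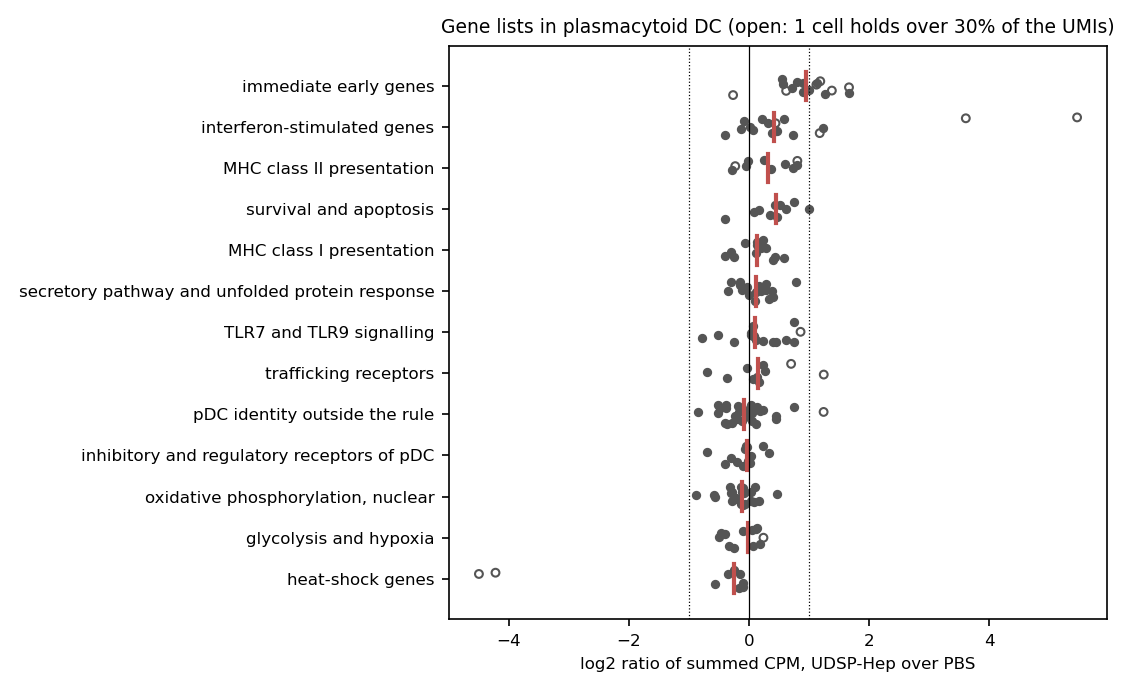
log2 ratio of summed CPM, UDSP-Hep over PBS, for each measured gene (points) of 13 lists, with red bars at list medians and dotted lines at the 2-fold limits. Open points have over 30% of the UMIs of the higher library in 1 cell; the immediate early median is 0.95 and the identity median -0.09.

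Among the 12 genes named on the higher side, chosen by the interval bound nearest equality with no cell above 30% of the UMIs of the higher library, Vps37b led. This ESCRT-I subunit was at 171 CPM in UDSP-Hep members and 38.1 CPM in PBS members, a ratio of 4.48 (interval 2.92 to 6.99), and was seen in 21 of 34 UDSP-Hep and 28 of 84 PBS cells. Cd33, a sialic acid-binding receptor gene, was at 357 CPM in UDSP-Hep members and 117 CPM in PBS members (ratio 3.06, interval 2.36 to 3.99). The share of cells with a Cd33 UMI was alike, 47.1% in UDSP-Hep members and 46.4% in PBS members. Nfkbia, which encodes the NF-kappa-B inhibitor IkB-alpha, was at 347 CPM in UDSP-Hep members and 133 CPM in PBS members (ratio 2.60, interval 2.02 to 3.35).

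Cdkn1a, the cell-cycle inhibitor p21, was at 155 CPM in UDSP-Hep members and 48.2 CPM in PBS members, with 37.2% of the PBS UMIs in 1 cell. Its log2 ratio of 1.69 became 3.67 without the Lyz2-rich cells, and it was 0.93 when 1 of the 4 rule genes was enough and 0.63 when no gene had to be absent, both inside the fold. Plxnd1, a semaphorin receptor, was at 89.2 CPM in UDSP-Hep members and 20.2 CPM in PBS members. Helz2 and Parp14, both known as interferon-inducible, were at 96.8 CPM and 112 CPM in UDSP-Hep members, and at 30.3 CPM and 37.0 CPM in PBS members. Swap70, an actin-binding regulator of Rac, had a ratio of 3.08. Chd3, a chromatin remodeller of the NuRD complex, had a ratio of 2.96, and Phf11b one of 3.03. Nr4a1 and Junb complete the 12. In T cells, cDC2 and macrophages the log2 ratio of Cd33 was 1.80, 1.21 and 1.04, in that order. It was 0.83, 0.90 and 1.26 for Vps37b, and 1.21, 1.01 and 0.98 for Nr4a1. For Plxnd1 these values were -0.15, 0.05 and -0.10, and for Phf11b -0.33, -0.27 and -0.47. They are given side by side and were not tested. On GRCm38, Vps37b lies on chromosome 5 (124004641 to 124032270, minus strand), Nr4a1 on chromosome 15 (101254269 to 101274795, plus strand) and Cd33 on chromosome 7 (43524216 to 43544428, minus strand), and values are for whole genes.

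On the lower side, protease and protease inhibitor genes were among the 12 named. Slpi, the secretory leukocyte protease inhibitor, was at 319 CPM in UDSP-Hep members and 726 CPM in PBS members, a ratio of 0.439 (interval 0.359 to 0.532). In single cells it ran from 0 to 28.6 UMIs per 10000 in UDSP-Hep members (median 0.327) and from 0 to 76.9 in PBS members (median 3.70). It was seen in 17 of 34 UDSP-Hep cells and 67 of 84 PBS cells. The gene lies on chromosome 2 (164354070 to 164389095, minus strand). Klk1b27, a kallikrein encoded near Klk1, was at 84.1 CPM in UDSP-Hep members and 227 CPM in PBS members (ratio 0.370, interval 0.248 to 0.536). The longest GENCODE transcripts of Klk1 and Klk1b27 were identical at 749 of 880 aligned bases (85.11%). Whether any reads of 1 gene were counted for the other was not tested.

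Napsa, the aspartic protease napsin A, was at 329 CPM in UDSP-Hep members and 621 CPM in PBS members, a ratio of 0.530 and so inside the fold. Over 15 alternatives its log2 ratio ranged from -1.09, past the fold, to -0.73. Ctso, cathepsin O, was at 51.0 CPM in UDSP-Hep members and 129 CPM in PBS members, and Serpinb6b, a serine protease inhibitor, at 58.6 CPM in UDSP-Hep members and 145 CPM in PBS members. The transporters Slco4a1 (organic anions) and Slc30a4 (zinc) had ratios of 0.415 and 0.427. Fabp5, a fatty acid-binding protein, had 7 UMIs in UDSP-Hep members and 60 in PBS members, and its log2 ratio of -1.91 turned to 2.88 when 1 of the 4 rule genes was enough. Nr2c2ap had 11 in UDSP-Hep members and 75 in PBS members. Gm5617, Gm34680 and Gm12840 complete the 12, with ratios of 0.284, 0.455 and 0.438, and 1 UDSP-Hep cell held 40.5% of the Gm12840 UMIs of that library.

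**Figure D5:**
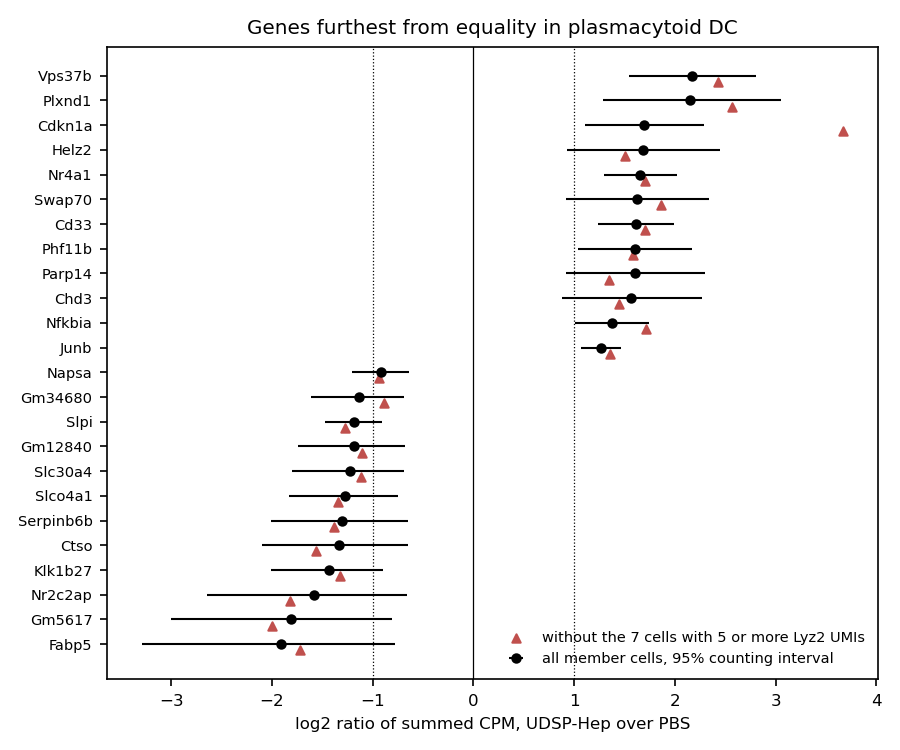
log2 ratio of summed CPM, UDSP-Hep over PBS, for the 24 named genes (black points, bars are exact 95% counting intervals) and without the 7 Lyz2-rich cells (red triangles); dotted lines mark the 2-fold limits. Cdkn1a moves most without those cells, to 3.67.

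Trafficking, cytokine and chemokine genes differed at single members. Among all genes measured, 2.45% were past the fold higher and 1.69% lower. Ccr2, a receptor for CCL2, was at 260 CPM in UDSP-Hep members and 110 CPM in PBS members, with 39.2% of the UDSP-Hep UMIs in 1 cell, and was the 1 of 10 trafficking receptors past the fold (log2 ratio 1.24, and 1.04 without the Lyz2-rich cells). Ccl4, an inflammatory chemokine, was at 3696 CPM in UDSP-Hep members and 2537 CPM in PBS members, with cell medians of 19.6 UMIs per 10000 in UDSP-Hep members and 5.96 in PBS members. It was seen in 32 of 34 UDSP-Hep cells and 63 of 84 PBS cells. Of 5 chemokine genes measured, Cxcl9 was past the fold higher, with 97.0% of its UDSP-Hep UMIs in 1 cell. Ccl2 was past it lower, with 0 UMIs in UDSP-Hep members and 62 in PBS members, 50% of these in 1 cell. Both were under 50 UMIs without the Lyz2-rich cells, Cxcl9 with 2 UMIs in UDSP-Hep members and 1 in PBS members, and Ccl2 with 0 in UDSP-Hep members and 16 in PBS members. Il10ra, a chain of the interleukin-10 receptor, was the 1 of 14 cytokine receptors past the fold, at 204 CPM in UDSP-Hep members and 99.7 CPM in PBS members (log2 ratio 0.81 without the Lyz2-rich cells). Flt3, the receptor for the growth factor of dendritic cells, was at 235 CPM in UDSP-Hep members and 197 CPM in PBS members.

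No member was past the fold among 14 inhibitory and regulatory receptors, 19 genes of the secretory pathway and unfolded protein response, 12 of glycolysis and hypoxia, 22 nuclear genes of oxidative phosphorylation, 4 of proliferation and 10 of survival. Over all genes 2.45% were past it higher and 1.69% lower, so 0 in lists of this size is near that share. Xbp1, a factor of secretory cells, was at 844 CPM in UDSP-Hep members and 690 CPM in PBS members. Herpud1, an endoplasmic reticulum stress gene, was at 660 CPM in UDSP-Hep members and 382 CPM in PBS members. Cox6a1, the ubiquitous counterpart of Cox6a2, was at 398 CPM in UDSP-Hep members and 373 CPM in PBS members. Mki67, a marker of cycling cells, had 1 UMI in UDSP-Hep members and 3 in PBS members. Heat-shock genes had 2 of 9 past the fold lower, Hspa1a with 0 UMIs in UDSP-Hep members and 127 in PBS members, and Hspa1b with 4 in UDSP-Hep members and 205 in PBS members. Single PBS cells held 48.8% of the Hspa1a and 42.9% of the Hspa1b UMIs. Without the Lyz2-rich cells both were under 50 UMIs, with log2 ratios of at most -1.82 for Hspa1a and -2.97 for Hspa1b. For Hspa1a the log2 ratio was -2.68 in cDC2, -1.59 in mature dendritic cells, -2.66 in T cells and -3.22 in macrophages. It was 0.05 in cDC1 and 4.13 in B cells. For Hspa1b these values were -2.69, -1.37, -2.15, -2.69, 0.005 and 3.67, in that order. They are given side by side and were not tested.

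Summed markers of other cell types were near equal between the libraries for some lists and unequal for others. Monocyte markers summed to 8112 CPM in UDSP-Hep members and 8061 CPM in PBS members. Without the Lyz2-rich cells these sums were 7655 CPM in UDSP-Hep members and 7986 CPM in PBS members. Ccr2 and Lyz2 were the 2 of 5 measured past the fold, both higher, against 2.45% of all genes. They were a small part of the sums, with Lyz2 at 805 CPM in UDSP-Hep members and 218 CPM in PBS members. Whether the rest came from monocytes was not tested. B cell markers, mostly Ighm, summed to 1180.0 CPM in UDSP-Hep members and 1105 CPM in PBS members, and plasma cell markers to 930.2 CPM in UDSP-Hep members and 859 CPM in PBS members. The lists for B and plasma cells hold genes that plasmacytoid cells also express. T cell markers summed to 15.3 CPM in UDSP-Hep members and 15.7 CPM in PBS members (at 0 for 3 of 6 genes in UDSP-Hep and 2 in PBS members), with Cd3e at 0 by the rule and Cd3g at 0 in both. Macrophage markers summed to 143 CPM in UDSP-Hep members and 136 CPM in PBS members, with C1qa at 0 by the rule. Without the Lyz2-rich cells these sums were 50.3 CPM in UDSP-Hep members and 91.4 CPM in PBS members. Neutrophil markers summed to 35.7 CPM (14 UMIs) in UDSP-Hep members and 7.84 CPM (7 UMIs) in PBS members. They were at 0 for 2 of 7 genes in UDSP-Hep and 3 in PBS members. Without the Lyz2-rich cells they summed to 25.2 CPM (8 UMIs) in UDSP-Hep members and 2.47 CPM (2 UMIs) in PBS members. Natural killer markers summed to 40.8 CPM (16 UMIs) in UDSP-Hep members and 6.72 CPM (6 UMIs) in PBS members, with Ncr1 and Klrb1c at 0 in both. The neutrophil and natural killer sums thus rest on few UMIs. Mature dendritic cell markers summed to 51.0 CPM (20 UMIs) in UDSP-Hep members and 87.4 CPM (78 UMIs) in PBS members. This order turned without the Lyz2-rich cells, with 62.9 CPM (20 UMIs) in UDSP-Hep members and 18.5 CPM (15 UMIs) in PBS members. Basophil and mast cell markers had no UMI, and melanoma markers 4 UMIs in UDSP-Hep members and none in PBS members.

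Among conventional dendritic cell markers, 3 genes were past the fold, against 2.45% of all genes higher and 1.69% lower. For cDC1 this was 1 of 4 measured, higher, and of 5 measured for cDC2, 1 was higher and 1 lower. The cDC1 markers summed to 362 CPM in UDSP-Hep members and 199 CPM in PBS members, and the cDC2 markers to 1014 CPM in UDSP-Hep members and 869 CPM in PBS members. Cadm1, an adhesion molecule listed for cDC1, was at 130 CPM in UDSP-Hep members and 15.7 CPM in PBS members (ratio interval 4.52 to 16.2, log2 ratio 2.75 without the Lyz2-rich cells), and was seen in 16 of 34 UDSP-Hep and 10 of 84 PBS cells. T cells held 4.62 CPM of Cadm1 in the UDSP-Hep library and 2.64 CPM in the PBS library. Xcr1, the defining cDC1 receptor, had 2 UMIs in the members of each library and Tlr3 none. Cd209a, a lectin of cDC2, was at 252 CPM in UDSP-Hep members and 60.5 CPM in PBS members (log2 ratio 2.06, and 2.22 without the Lyz2-rich cells), and was seen in 11 of 34 UDSP-Hep and 16 of 84 PBS cells. In T cells Cd209a was at 63.9 CPM in the UDSP-Hep library and 29.3 CPM in the PBS library. Mgl2, a lectin listed for cDC2, was the 1 past the fold lower, with 6 UMIs in UDSP-Hep members and 80 in PBS members, 71.2% of these in 1 cell. Its log2 ratio was -0.59 without the Lyz2-rich cells, on under 50 UMIs. Clec10a, another cDC2 marker, was at 390 CPM in UDSP-Hep members and 359 CPM in PBS members. The part of other cells' RNA in these values was not tested.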

How the data were processed

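Droplet single-cell libraries of CD45+ tumour leukocytes, 1 per group, were analysed. The authors deposited raw UMI counts per gene and barcode, with gene names and barcodes, and the file headers name Cell Ranger 7.0.0. The submitters' processing notes name mm10 as build and list Seurat, with no version or role. How barcodes were selected before deposit was not given, and none had fewer than 500 UMIs. The members and gene lists were chosen with earlier results of these data known.

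Counts were summed over the members of each library and scaled to CPM. A gene was measured at 50 UMIs or more over both libraries and called past the fold at a ratio of at least 2 or at most 0.5. Where a library had 0 UMIs, the ratio was taken against a floor of 3. Ratio intervals are exact conditional binomial, shares exact (Clopper-Pearson) and share ratios Katz, all at 95%. UMIs within a cell and cells within a tumour are not independent, so these intervals are narrow. Named genes were the 12 highest and 12 lowest by the interval bound nearest equality, at 50 CPM or more where higher, with no cell above 30% of the UMIs of the higher library. Mitochondrial, ribosomal protein, haemoglobin, immunoglobulin, T cell receptor, Y-linked, rule and other-class marker genes, Xist and Tsix were not eligible. Members of the lists are examples. For 32158 of 32285 gene identifiers a GENCODE M21 (GRCm38) entry was found.

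Doublets were scored per library with Scrublet (scanpy 1.11.5). Its own threshold marked 0% of cells, so it did not work, and doublets were kept in the main values and removed by score in an alternative. That alternative removed 3 UDSP-Hep and 5 PBS members. For shares of cells with a UMI, each cell was thinned to 2000 UMIs, which left out no member and 28 UDSP-Hep and 15 PBS T cells. Alternatives changed the rule, the cell filters, doublets, depth, scaling, the UMI minimum and the denominator. The ratio code was tested on simulated counts. Python 3.11.15, numpy 2.4.6, scipy 1.17.1 and pandas 2.3.3 were used. Some items are not reported here.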

Additional observations from a re-analysis of the deposited data

Results flagged for a closer look

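Slpi had opposite directions in different cells. Its log2 ratio, UDSP-Hep over PBS, was -1.19 in plasmacytoid dendritic cells, while it was 1.05 (1.052) in T cells and 1.56 (1.556) in macrophages. In T cells it was at 45.0 CPM in the UDSP-Hep library and 21.7 CPM in the PBS library. In macrophages it was at 148 CPM in the UDSP-Hep library and 50.3 CPM in the PBS library. In cDC1 its log2 ratio was 5.30, at 681 CPM in the 13 UDSP-Hep cells and 17.3 CPM in the PBS library, and in cDC2 0.38. In B cells it was -10.44, at 11.5 CPM in the 64 UDSP-Hep cells and 15999 CPM in the 51 PBS cells. How these UMIs were spread over single B cells is not given here. With 1 library per group this difference between classes was not tested. Beside it, the 7 neutrophil markers were all past 2-fold higher in the T cells of the UDSP-Hep library (median log2 ratio 3.36), and 6 of 7 were in macrophages (median 5.37). Their part in the Slpi values was not tested.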

How the results depend on the processing

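No paired analysis was possible because each group had 1 library. The ratio of shares of kept cells stayed between 0.360 and 0.448 over 10 alternatives, and that among dendritic cells between 0.791 and 0.946 over 9. The count of genes past 2-fold higher, 100 in the main setting, was 11 with cells thinned to 2000 UMIs, 311 at 20 or more summed UMIs, 38 at 100 or more and 61 with the deepest 10% of members left out. The count of lower genes, 69, was 145 when no gene had to be absent, 14 with thinned cells, 316 at 20 or more UMIs and 16 at 100 or more. Fabp5 reversed to a log2 ratio of 2.88 when 1 of the 4 rule genes was enough. The cause of these movements was not tested. Of 326 values for 24 genes, 303 stayed within their counting interval, 22 moved outside it and 1 reversed. Besides Cdkn1a, some alternative brought the log2 ratio inside the fold for Plxnd1 (0.87), Phf11b (0.87), Junb (0.92) and Nfkbia (0.96). On the lower side this held for Klk1b27 (-0.63), Slco4a1 (-0.81), Slc30a4 (-0.64), Gm34680 (-0.58) and Gm12840 (-0.99). Of 232 medians for 16 lists, 219 stayed within the 95% order-statistic interval of the list's median and 13 moved outside it. The median of the immediate early genes ranged from 0.540 to 1.18, while those of the interferon-stimulated genes (-0.160 to 0.671) and of class II presentation (-0.04 to 0.581) crossed 0. The alternative without the Lyz2-rich cells was chosen after seeing the data. The number of genes measured was 791 with thinned cells, 6794 at 20 UMIs and 2242 at 100 UMIs, and with 34 and 84 cells genes under about 50 UMIs were not resolved.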
